A study of Homo sapiens with 15 samples.

Results

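The genes of the cell cycle and of DNA replication were followed in SCC13 cells, an established human line of cutaneous squamous cell carcinoma, with and without transfected TLR4 and with and without LPS. The list held 59 gene symbols, from the replicative helicase to the mitotic motors and the proliferation marker MKI67, and the rule used no expression value. A gene was measured by every probe whose accession mapped to its symbol. This gave 58 of the 59 genes, out of 20499 genes named on the array, on 70 of 50599 probes. No probe carried an accession of UBE2C. The genes were kept apart as 20 of the replication class, 9 of the G1 class and 29 of the mitotic class.

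SCC13-pUNO cells carried the control plasmid pUNO and SCC13-TLR4 cells the plasmid pUNO-TLR4GFP, and both were stably transfected and kept under blasticidine. The SCC13-TLR4 cells were the sorted fraction with the highest GFP signal, so each line was 1 transfected population and a difference between the lines can also be one between populations. All arrays were of cells after 24 h, in 4 groups, namely SCC13-pUNO untreated (4 arrays), SCC13-TLR4 untreated (3 arrays), and each line with LPS at 10 μg/ml (4 arrays each). The replicates were seeded cultures of these populations, so the p-values measure the spread between cultures and arrays. The question was whether the cell cycle program of the tumor cells differed with TLR4 and with its ligand LPS, a cell wall component of bacteria.

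Entry into S phase depends on cyclin D with CDK4 or CDK6 and cyclin E with CDK2, which release E2F transcription factors from the retinoblastoma protein. E2F factors then drive genes that license origins (CDC6, CDT1, MCM), unwind and copy DNA, and make deoxynucleotides. The mitotic genes peak later, in G2 and mitosis, and are kept silent in resting cells by a repressor complex that binds a short element named CHR. In a dividing keratinocyte culture both sets are therefore expressed, and together they are the usual reading of how many cells are cycling. In RNA from a whole culture, fewer cycling cells and less RNA per cycling cell cannot be told apart.

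Promoter sequences are shown for MCM6 and PCNA of the replication class and for PLK1 and HMMR of the mitotic class, since the classes are read apart below and these genes hold the elements that mark each class. Each line is the 150 bases before the RefSeq start of the gene (GRCh38.p14), with the sequence words found in it in capitals. They lie at chr2:135876444-135876593 (minus strand), chr20:5126623-5126772 (minus strand), chr16:23678739-23678888 (plus strand) and chr5:163460482-163460631 (plus strand).
MCM6: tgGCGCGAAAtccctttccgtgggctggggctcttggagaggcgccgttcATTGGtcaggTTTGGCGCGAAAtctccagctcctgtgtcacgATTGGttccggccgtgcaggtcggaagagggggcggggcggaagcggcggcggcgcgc
PCNA: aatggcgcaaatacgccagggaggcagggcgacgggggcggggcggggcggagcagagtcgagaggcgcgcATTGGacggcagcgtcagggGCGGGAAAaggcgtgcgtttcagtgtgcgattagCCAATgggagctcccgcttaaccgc
PLK1: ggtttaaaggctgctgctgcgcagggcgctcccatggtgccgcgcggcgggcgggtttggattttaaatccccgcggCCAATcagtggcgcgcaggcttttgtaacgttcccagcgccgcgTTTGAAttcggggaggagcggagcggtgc
HMMR: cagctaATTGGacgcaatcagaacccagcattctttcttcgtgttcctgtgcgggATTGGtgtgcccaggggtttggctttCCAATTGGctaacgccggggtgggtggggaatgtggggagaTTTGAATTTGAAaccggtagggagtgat

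The words were searched on both strands and were TTTGGCGC, TTTCCCGC, TTTCGCGC and TTTGCCGC for E2F, TTTGAA for CHR and CCAAT for the CCAAT box. In MCM6 the run TTTGGCGCGAAA holds a pair of E2F words that overlap on opposite strands, and in HMMR the run CCAATTGG holds CCAAT on both strands. In the full window of 300 bases, from 250 before to 50 after the start, an E2F word stood in 11 of 18 replication genes with a RefSeq window, in 3 of 6 G1 genes and in 2 of 24 mitotic genes, against 5.40% of 15842 protein-coding genes. The CHR word stood in 16 of 24 mitotic genes and in 1 of 18 replication genes, against 15.9% of all. CCAAT stood in 20 of 24 mitotic and 12 of 18 replication genes, against 42.1% of all. These are matches of letters and not sites of binding. The table held no window for MCM4, MCM5, CCND1, CCNE2, CDK2, AURKA, TTK, TPX2, BIRC5, FOXM1 and UBE2C.

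The arrays were Agilent SurePrint G3 8x60K arrays of 1 colour, and their 75th percentiles of signal lay between 192 and 420 intensity units. The lowest, 192, was that of SCC13-pUNO with LPS replicate 3. Values below are log2 of the signal minus the log2 of the 75th percentile of the same array, in the order of the replicate numbers, and a value of 1 probe is not comparable with that of another. Untreated SCC13-pUNO replicates 1 to 3, untreated SCC13-TLR4 replicate 1 and replicates 1 and 2 of both LPS groups shared slide 1, and the other 7 arrays shared slide 2. Each slide held every group, and slide was a factor in the fit. Replicate 2 of untreated SCC13-pUNO, as labelled, read 3.04 for TLR4, within the 2.84 to 3.19 of the SCC13-TLR4 arrays and far from the -6.40 to -3.80 of the other SCC13-pUNO arrays. It also lay in slide column 1 with the untreated SCC13-TLR4 arrays. It was kept under its label, is called the doubted array below, and values without it stand beside the results. Aside from it each group lay in 1 of the 4 slide columns, so column and group cannot be told apart. Of 8 keratinocyte markers, 7 were well above background on all 15 arrays, among them KRT5, KRT14 and TP63. Of 6 fibroblast markers, COL1A1 was above background on some arrays and the other 5 on none. PMEL of melanocytes, PTPRC and CD14 of leukocytes and CDH5 of endothelium were also marked above background on all arrays. The other markers of these lists, MLANA, TYR, DCT, CD3E, PECAM1 and VWF, were above background on some arrays only, and LYZ had no probe. The part of these genes in the results was not tested. The genes named with all their values are a fixed set of markers together with those of largest difference in each comparison, those whose probes disagreed in sign, and TYMS and HMMR, which were chosen after their values were seen.

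All 70 probes of the cell cycle genes were bright enough to test, and all but 1 probe of PCNA were well above background on all 15 arrays. Between the lines none of the 58 genes passed an adjusted p of 0.05 in limma, without LPS, with LPS or over both. Over all 22676 probes tested the share called was 0% without LPS, 0% with LPS and 0.097% over both. At an unadjusted p under 0.05, 1 gene was lower without LPS, 3 were lower with LPS and 6 were lower over both, and none was higher. Of all probes 2.57%, 3.83% and 5.19% were lower at that p, and 2.98%, 2.59% and 5.35% were higher. The 6 genes were CDC45, GINS1, TYMS, TK1, KIF23 and HMMR, with differences between -0.26 and -0.11 on the log2 scale and a smallest adjusted p of 0.419. They were picked out by their values. Without the doubted array the counts were 2, 1 and 7, again all lower, against 1.99%, 3.75% and 5.33% of all probes. At the adjusted threshold they were 0, where 0.0485%, 0.097% and 0.216% of all probes were called. With 1 array left out at a time the counts at the unadjusted p, in either direction, ran from 0 to 4, from 1 to 13 and from 4 to 11. The 13 and the 11 were both without SCC13-pUNO with LPS replicate 2. The 4 of the first range was without SCC13-pUNO with LPS replicate 3. Leaving out that replicate 3 was also among the settings that gave the 1 of the second range. The adjusted threshold gave 0 each time.

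Over both treatments the genes lay between -0.33 (CCNE2) and 0.14 (PLK1), which is 1.25-fold lower to 1.10-fold higher in SCC13-TLR4 cells. The 95% interval of the difference stayed within 1 log2 unit for 58 of 58 genes in each comparison of the lines, and within 0.5 for 54 without LPS, 55 with LPS and 57 over both. Of the 22676 probes tested, 19734, 20314 and 21259 stayed within 1 log2 unit. For all probes the shares within 0.5 were 58.6%, 63.2% and 75.2%. The median difference over both treatments was -0.04 for the 58 genes and 0.01 for all probes. It was -0.04 for the replication class, -0.05 for the G1 class and -0.01 for the mitotic class. Without the doubted array these class medians were -0.07, -0.05 and -0.02. Of the 20 replication genes 18 lay below 0, and of the 29 mitotic genes 17 did, while 53.7% of all probes lay above 0.

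**Figure D1:**
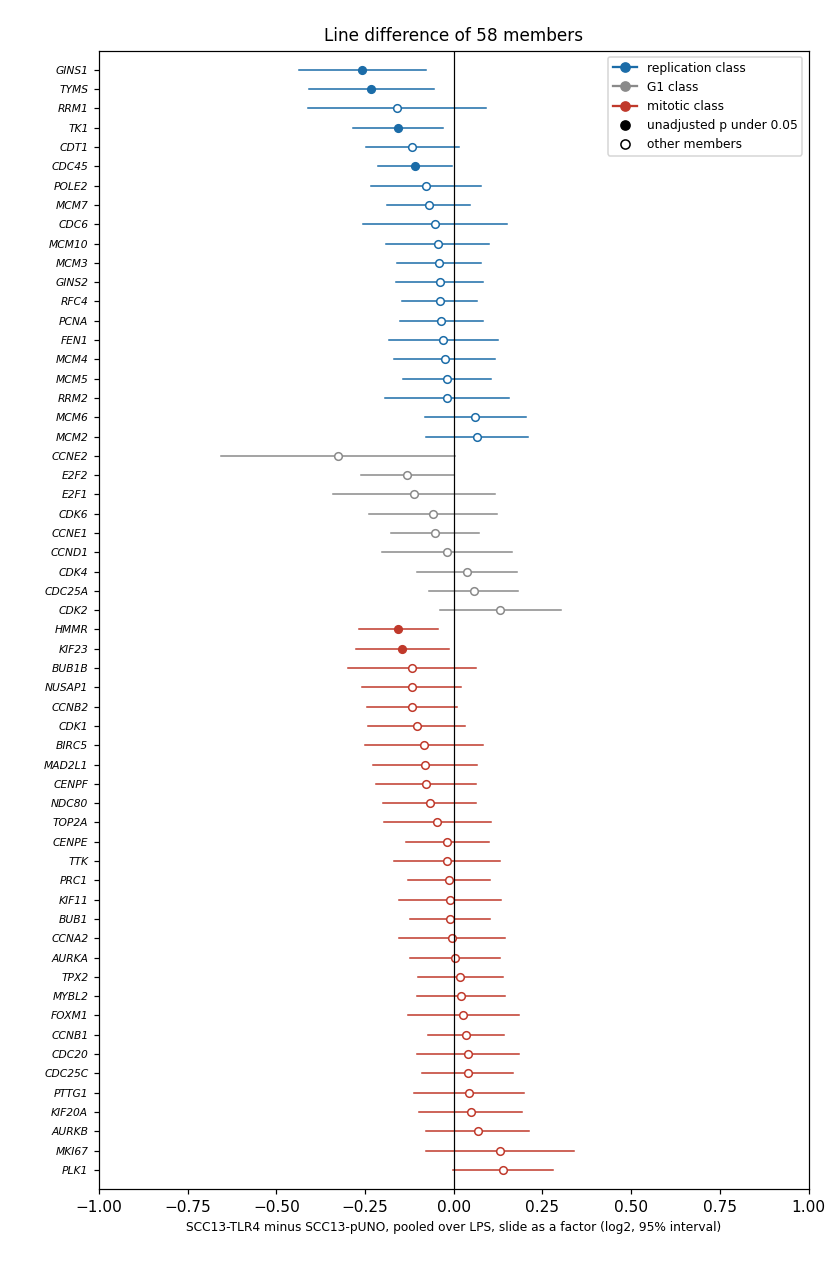
Difference between SCC13-TLR4 and SCC13-pUNO cells for 58 genes, over both treatments with slide as a factor. The horizontal axis is the log2 difference with its 95% interval, each row is a gene, the colour gives its class and filled points have an unadjusted p under 0.05. The intervals of all genes stay within 1 log2 unit of 0, and the 6 filled points lie between -0.26 and -0.11.

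The lines were compared without and with LPS on different arrays, and 14 of the 58 genes changed sign between the comparisons. In both, 30 genes (51.7%) were lower in SCC13-TLR4 cells and 14 (24.1%) higher. For all probes these shares were 30.1% and 35.8%. Of the replication genes 13 of 20 were lower in both and 2 were higher in both. Of the mitotic genes 13 of 29 were lower in both and 10 were higher in both. The slide estimate is shared by both comparisons, and these counts carry no test.

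Among the genes of the helicase and of origin licensing, the MCM proteins form the ring that unwinds DNA. MCM2 stood at 5.17, 5.20, 5.38 and 4.94 on the untreated SCC13-pUNO arrays and at 5.21, 5.31, 4.66 and 4.70 with LPS. In SCC13-TLR4 cells MCM2 stood at 5.34, 4.96 and 4.95 untreated and at 5.32, 5.04, 4.77 and 4.94 with LPS. The groups overlapped, and within each group the arrays of slide 1 were higher than those of slide 2. The difference of the lines was 0.06 (SE 0.07, limma adjusted p 0.723), with 0.01 within slide 1 and 0.10 within slide 2. MCM5, another subunit of the ring, gave the same picture. MCM5 stood at 5.12, 5.04, 5.12 and 4.89 on the untreated SCC13-pUNO arrays and at 5.31, 5.08, 4.69 and 4.81 with LPS. In SCC13-TLR4 cells MCM5 stood at 5.17, 4.81 and 4.81 untreated and at 5.0, 5.05, 4.87 and 4.76 with LPS. Its difference was -0.02 (SE 0.06, limma adjusted p 0.916), and the groups overlapped.

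MCM6, whose promoter is shown above, was among the genes with the largest positive difference with LPS. MCM6 stood at 4.56, 4.55, 4.66 and 4.11 on the untreated SCC13-pUNO arrays and at 4.32, 4.29, 4.30 and 4.13 with LPS. In SCC13-TLR4 cells MCM6 stood at 4.59, 4.18 and 4.39 untreated and at 4.52, 4.39, 4.24 and 4.29 with LPS. The difference of the lines with LPS was 0.10 (SE 0.09), and without LPS it was 0.02 (SE 0.10). Neither passed the test. The other MCM genes, MCM3, MCM4, MCM7 and MCM10, lay between -0.07 and -0.03 over both treatments.

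GINS1, a subunit of the GINS complex that holds the helicase together with CDC45, had the lowest difference of the replication class. GINS1 stood at 2.51, 2.44, 2.64 and 2.71 on the untreated SCC13-pUNO arrays and at 2.32, 2.54, 3.00 and 2.61 with LPS. In SCC13-TLR4 cells GINS1 stood at 2.34, 2.20 and 2.48 untreated and at 2.40, 2.30, 2.42 and 2.55 with LPS. Its SCC13-TLR4 arrays were lower than its SCC13-pUNO arrays in 47 of 56 pairs, and the highest value, 3.00, was on SCC13-pUNO with LPS replicate 3. The difference was -0.26 (SE 0.08), which is 1.20-fold lower, with an unadjusted p of 0.0088 and an adjusted p of 0.419 in limma. A two-sided exact permutation test within slide and treatment gave p = 0.00694 over 432 arrangements, of which the smallest possible was 0.0023. Here and below, permutation p-values are not adjusted for the choice of a gene by its difference. The difference was -0.13 within slide 1 and -0.35 within slide 2, -0.27 without the doubted array and -0.19 without SCC13-pUNO with LPS replicate 3. CDC45, its partner at the fork, had a difference of -0.11 (SE 0.05, limma adjusted p 0.458). GINS2, of the same complex, had -0.04 (SE 0.06). The licensing factors CDC6 and CDT1 had -0.05 and -0.12.

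At the fork, PCNA is the clamp that keeps the polymerases on DNA. PCNA stood at 4.71, 4.82, 4.78 and 4.63 on the untreated SCC13-pUNO arrays and at 4.78, 4.70, 4.55 and 4.73 with LPS. In SCC13-TLR4 cells PCNA stood at 4.84, 4.67 and 4.64 untreated and at 4.59, 4.63, 4.47 and 4.71 with LPS. The values of the 15 arrays lay within 4.47 to 4.84. The difference of the lines was -0.03 (SE 0.05, limma adjusted p 0.832), with an interval of -0.15 to 0.08. A further probe of PCNA read -6.51 on untreated SCC13-TLR4 replicate 1 against a median of 3.98 over the arrays. That array held 210 dark spots among 14577 that were bright elsewhere, and the others at most 24. The comparison without LPS was -4.40 by that probe, and -0.06 and 0.02 by the other PCNA probes. POLE2, a subunit of the leading strand polymerase, lay at -0.08 (SE 0.07), FEN1, which trims lagging strand fragments, at -0.03, and RFC4, of the clamp loader, at -0.04.

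TK1, thymidine kinase 1, supplies thymidine nucleotides by salvage and had the lowest difference of the replication class with LPS. TK1 stood at 8.36, 8.17, 8.28 and 8.01 on the untreated SCC13-pUNO arrays and at 8.51, 8.31, 8.08 and 8.05 with LPS. In SCC13-TLR4 cells TK1 stood at 8.32, 7.79 and 7.72 untreated and at 8.23, 8.26, 7.86 and 7.72 with LPS. On slide 2 all 4 SCC13-TLR4 arrays were below all 3 SCC13-pUNO arrays, and on slide 1 the lines overlapped. How many of all probes separated in this way on slide 2 was not counted, so the separation is not read as a result about TK1. The difference was -0.16 (SE 0.06, limma adjusted p 0.435, exact permutation p = 0.0162), with -0.06 within slide 1 and -0.26 within slide 2. TYMS, thymidylate synthase, makes the same nucleotide by another route. TYMS stood at 4.84, 4.61, 4.81 and 4.84 on the untreated SCC13-pUNO arrays and at 4.71, 4.60, 5.11 and 4.76 with LPS. In SCC13-TLR4 cells TYMS stood at 4.66, 4.44 and 4.56 untreated and at 4.68, 4.52, 4.49 and 4.62 with LPS. Its difference was -0.23 (SE 0.08, limma adjusted p 0.426), with -0.07 and -0.36 within the slides. The highest TYMS value, 5.11, was on SCC13-pUNO with LPS replicate 3, and the difference without that array is not given here. RRM1 and RRM2, the subunits of ribonucleotide reductase, had -0.16 (SE 0.12) and -0.02 (SE 0.08). All 8 genes of the fork and of nucleotide supply lay below 0 over both treatments, with a median of -0.06, and 2 of them had an unadjusted p under 0.05. Of all probes 53.7% lay above 0 and 5.19% were lower at that p.

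**Figure D2:**
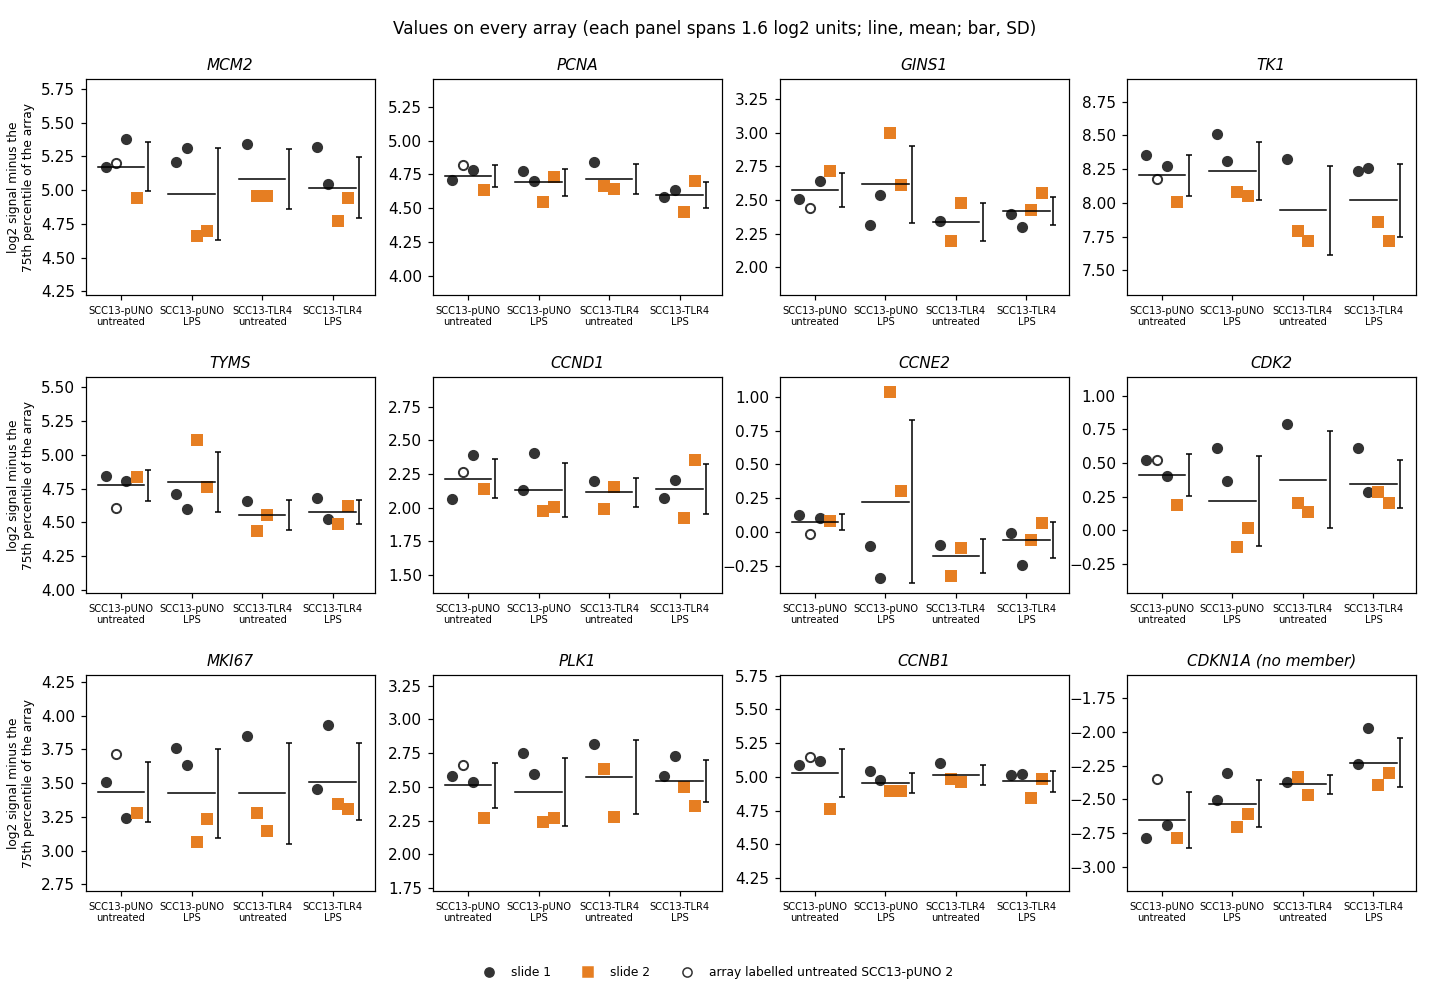
Values of 11 cell cycle genes and of the inhibitor CDKN1A on every array, as log2 signal minus the 75th percentile of the array. Circles are slide 1, squares slide 2, the open circle is the doubted array, labelled untreated SCC13-pUNO 2, the line is the group mean and the bar its SD. The lines overlap in every panel under each treatment, but for CCNE2 without LPS, where the 3 SCC13-TLR4 arrays are below the 4 SCC13-pUNO arrays. The share of all probes that separate so was not counted, so the separation is not read as a result.

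In the G1 class, CCND1 encodes cyclin D1, which links growth signals to the cycle. CCND1 stood at 2.06, 2.27, 2.39 and 2.14 on the untreated SCC13-pUNO arrays and at 2.13, 2.41, 1.98 and 2.00 with LPS. In SCC13-TLR4 cells CCND1 stood at 2.20, 1.99 and 2.15 untreated and at 2.07, 2.21, 1.93 and 2.35 with LPS. The difference of the lines was -0.02 (SE 0.08), and every group overlapped every other. Its partners CDK4 and CDK6 differed by 0.04 and -0.06. CDK2, the partner of cyclin E, had a difference of 0.13 (SE 0.08, limma adjusted p 0.535). CDK2 stood at 0.52, 0.52, 0.40 and 0.19 on the untreated SCC13-pUNO arrays and at 0.61, 0.37, -0.12 and 0.02 with LPS. In SCC13-TLR4 cells CDK2 stood at 0.79, 0.20 and 0.14 untreated and at 0.61, 0.29, 0.28 and 0.21 with LPS. Its slide 1 arrays were higher than its slide 2 arrays in every group.

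CCNE2, cyclin E2, had the lowest difference of all 58 genes without LPS, with LPS and over both. CCNE2 stood at 0.12, -0.01, 0.10 and 0.08 on the untreated SCC13-pUNO arrays and at -0.10, -0.34, 1.04 and 0.30 with LPS. In SCC13-TLR4 cells CCNE2 stood at -0.09, -0.32 and -0.12 untreated and at -0.01, -0.24, -0.06 and 0.07 with LPS. The array of SCC13-pUNO with LPS replicate 3 read 1.04, well apart from the other 14, which lay between -0.34 and 0.30. Without LPS the 3 SCC13-TLR4 arrays were below all 4 SCC13-pUNO arrays, and with LPS the lines overlapped. How many of all probes separated in this way without LPS was not counted, so the separation is not read as a result about CCNE2. The difference over both was -0.33 (SE 0.15, limma adjusted p 0.475, exact permutation p = 0.0278). It was -0.03 within slide 1 and -0.49 within slide 2, and -0.17 without that array. The other probe of CCNE2 gave -0.02. CCNE1, cyclin E1, differed by -0.05 (SE 0.06).

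E2F1, the transcription factor that drives the S phase genes, did not pass the test either. E2F1 stood at 3.42, 2.93, 3.09 and 2.91 on the untreated SCC13-pUNO arrays and at 3.38, 2.99, 3.17 and 2.93 with LPS. In SCC13-TLR4 cells E2F1 stood at 3.35, 2.81 and 2.68 untreated and at 3.27, 2.95, 2.79 and 2.58 with LPS. The difference was -0.01 (SE 0.16) without LPS and -0.22 (SE 0.14) with LPS. E2F2 lay at -0.13 over both treatments. CDC25A, the phosphatase that activates CDK2, lay at 0.06 (SE 0.06).

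In the mitotic class, MKI67 encodes Ki-67, the protein by which pathologists count proliferating cells. MKI67 stood at 3.51, 3.71, 3.24 and 3.27 on the untreated SCC13-pUNO arrays and at 3.76, 3.63, 3.07 and 3.23 with LPS. In SCC13-TLR4 cells MKI67 stood at 3.85, 3.28 and 3.15 untreated and at 3.46, 3.93, 3.35 and 3.31 with LPS. The 4 groups overlapped broadly, and the slide 2 arrays all lay at or below 3.35. The difference of the lines was 0.13 (SE 0.10, limma adjusted p 0.617), 0.17 without LPS and 0.09 with LPS. Within slide 1 the value without LPS was 0.36 and within slide 2 it was -0.06. Its 3 probes gave 0.07 to 0.13 over both treatments.

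CDK1 and cyclin B1 form the kinase that starts mitosis. CCNB1 stood at 5.09, 5.15, 5.11 and 4.76 on the untreated SCC13-pUNO arrays and at 5.05, 4.98, 4.90 and 4.89 with LPS. In SCC13-TLR4 cells CCNB1 stood at 5.10, 4.99 and 4.96 untreated and at 5.01, 5.02, 4.85 and 4.98 with LPS. The SCC13-TLR4 values lay within the SCC13-pUNO range. CCNB1 differed by 0.04 (SE 0.05, limma adjusted p 0.811) by its brightest probe and by -0.16 by the other, with an unadjusted limma p of 0.0459 for the latter. CDK1 stood at 3.56, 3.41, 3.67 and 3.72 on the untreated SCC13-pUNO arrays and at 3.51, 3.55, 3.68 and 3.80 with LPS. In SCC13-TLR4 cells CDK1 stood at 3.55, 3.50 and 3.60 untreated and at 3.61, 3.41, 3.44 and 3.57 with LPS. CDK1 differed by -0.10 (SE 0.06, limma adjusted p 0.539). The exact permutation p was 0.088 with all arrays and 0.0247 without the doubted one. CCNA2 and CCNB2, the cyclins A2 and B2, lay at -0.0043 and -0.12.

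PLK1, polo-like kinase 1, had the highest difference of the 58 genes over both treatments. PLK1 stood at 2.58, 2.66, 2.54 and 2.27 on the untreated SCC13-pUNO arrays and at 2.75, 2.59, 2.24 and 2.27 with LPS. In SCC13-TLR4 cells PLK1 stood at 2.82, 2.63 and 2.28 untreated and at 2.58, 2.73, 2.50 and 2.35 with LPS. The lines overlapped on slide 1, and on slide 2 the SCC13-TLR4 arrays lay from 2.28 to 2.63 and the SCC13-pUNO arrays from 2.24 to 2.27. Separation within slide 2 was not counted over all probes, so it is not read as a result about PLK1. The difference was 0.14 (SE 0.07, limma adjusted p 0.478, exact permutation p = 0.0556). It was 0.10 within slide 1 and 0.18 within slide 2. The aurora kinases AURKA and AURKB lay at 0.0031 and 0.07. FOXM1 and MYBL2, the factors that switch on the mitotic genes, lay at 0.03 (SE 0.07) and 0.02 (SE 0.06). CDC25C, which activates CDK1, lay at 0.04.

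TOP2A, the topoisomerase that untangles sister chromosomes, lay within 2.69 to 3.07 on all arrays. TOP2A stood at 2.81, 2.87, 3.07 and 2.88 on the untreated SCC13-pUNO arrays and at 2.81, 2.94, 2.74 and 2.78 with LPS. In SCC13-TLR4 cells TOP2A stood at 2.84, 2.73 and 2.91 untreated and at 2.78, 2.73, 2.69 and 3.03 with LPS. Its difference was -0.05 (SE 0.07, limma adjusted p 0.821). HMMR, a spindle protein that also binds hyaluronan, had the lowest mitotic difference over both treatments. HMMR stood at 2.84, 2.84, 2.75 and 2.85 on the untreated SCC13-pUNO arrays and at 2.81, 2.80, 3.00 and 2.77 with LPS. In SCC13-TLR4 cells HMMR stood at 2.74, 2.61 and 2.64 untreated and at 2.71, 2.70, 2.62 and 2.73 with LPS. In SCC13-TLR4 cells all 7 arrays read at most 2.742, and in SCC13-pUNO cells all 8 read at least 2.748. It was the 1 gene of 58 whose lines did not overlap over both treatments, with the doubted array under its label or without it. Of all probes 0.0706% did not overlap with that array and 0.251% without it. The doubted array read 2.84 for HMMR, so the lines would overlap if it were an SCC13-TLR4 array. The difference was -0.16 (SE 0.05), which is 1.11-fold lower, with an unadjusted p of 0.01 and an adjusted p of 0.423 in limma. It was -0.08 within slide 1, -0.22 within slide 2 and -0.15 without the doubted array. The highest HMMR value, 3.00, was on SCC13-pUNO with LPS replicate 3, and the difference without that array is not given here. KIF23 is a motor of the late spindle whose probes disagreed in sign. KIF23 stood at 5.14, 4.97, 5.01 and 4.74 on the untreated SCC13-pUNO arrays and at 5.19, 4.94, 4.91 and 4.74 with LPS. In SCC13-TLR4 cells KIF23 stood at 4.94, 4.54 and 4.68 untreated and at 4.96, 4.85, 4.59 and 4.78 with LPS. The lines overlapped on both slides. The difference of KIF23 was -0.14 (SE 0.06, limma adjusted p 0.452) by its brightest probe and 0.0012 by the other.

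The spindle checkpoint and kinetochore genes BUB1, BUB1B, MAD2L1, TTK, NDC80, CENPE and CENPF all lay below 0, between -0.12 and -0.01, and none had an unadjusted p under 0.05. Over both treatments 53.7% of all probes lay above 0. CENPF was fitted on 14 arrays, since its spot on untreated SCC13-TLR4 replicate 1 was marked as an outlier. CDC20, which triggers the anaphase-promoting complex, and PTTG1, the securin destroyed by it, both lay at 0.04. The remaining spindle and cytokinesis genes KIF11, KIF20A, TPX2, BIRC5, PRC1 and NUSAP1 lay between -0.12 and 0.05. The 10 entry kinases, cyclins and their transcription factors had a median of 0.02.

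After 24 h with LPS, none of the 58 genes was called by limma in SCC13-pUNO cells or in SCC13-TLR4 cells at an adjusted p of 0.05, where 0% of all probes were. At an unadjusted p under 0.05 there was none in either line, against 3.85% of all probes in SCC13-pUNO cells and 2.96% in SCC13-TLR4 cells. The range was -0.15 to 0.14 in SCC13-pUNO cells and -0.16 to 0.17 in SCC13-TLR4 cells. The intervals were within 0.5 log2 units for 57 of 58 genes in each line, the exception in each being CCNE2, against 64.8% of all probes in SCC13-pUNO and 64.6% in SCC13-TLR4 cells. The median was -0.01 for the 58 genes and 0.01 for all probes in SCC13-pUNO cells, and -0.05 and -0.02 in SCC13-TLR4 cells. No gene passed the test of whether the lines responded differently, by adjusted or by unadjusted p (1.99% of all probes at the latter). Without the doubted array the count in each of these comparisons was 0 as well, against 3.60%, 2.47% and 2.02% of all probes at an unadjusted p under 0.05 and 0% at the adjusted one.

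In SCC13-pUNO cells the lowest values with LPS were those of MCM6 (-0.15, SE 0.09) and MCM2 (-0.10, SE 0.09), and the highest those of TK1 (0.14, SE 0.08) and E2F1 (0.11, SE 0.14). In SCC13-TLR4 cells the lowest were those of CDC25A (-0.16, SE 0.08) and POLE2 (-0.14, SE 0.10). The highest were those of CCNE2 (0.17, SE 0.22) and CDK6 (0.14, SE 0.12). Each value was below 2 of its own standard errors. CDC25A stood at 2.90, 2.84, 2.96 and 2.66 on the untreated SCC13-pUNO arrays and at 3.11, 2.86, 2.46 and 2.52 with LPS. In SCC13-TLR4 cells CDC25A stood at 3.06, 2.73 and 2.68 untreated and at 2.89, 2.80, 2.58 and 2.62 with LPS. POLE2 stood at 0.59, 0.63, 0.77 and 0.52 on the untreated SCC13-pUNO arrays and at 0.65, 0.52, 0.45 and 0.41 with LPS. In SCC13-TLR4 cells POLE2 stood at 0.72, 0.43 and 0.42 untreated and at 0.59, 0.19, 0.34 and 0.50 with LPS. The groups of both genes overlapped, and the lowest POLE2 value, 0.19, was on SCC13-TLR4 with LPS replicate 2. CDK6 stood at 2.07, 2.12, 2.03 and 2.34 on the untreated SCC13-pUNO arrays and at 1.97, 1.79, 2.77 and 2.40 with LPS. In SCC13-TLR4 cells CDK6 stood at 2.05, 2.21 and 2.27 untreated and at 2.13, 2.01, 2.47 and 2.39 with LPS. For CDK6 the 4 groups shared most of their range, and 2.77, the highest value, was again on SCC13-pUNO with LPS replicate 3. MKI67 with LPS differed by 0.10 (SE 0.13) in SCC13-pUNO and 0.01 (SE 0.14) in SCC13-TLR4 cells.

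The slides differed far more than the groups. The fit called 38 of 58 genes between slide 2 and slide 1 at an adjusted p of 0.05 in limma, 35 lower and 3 higher on slide 2. Of all probes 51.8% were called, 34.7% lower and 17.1% higher. The median was -0.20 for the 58 genes and -0.13 for all probes. CDC20 (-0.51), MKI67 (-0.44) and MCM2 (-0.41) were the lowest on slide 2. MCM10 (0.50), CDK6 (0.41) and MCM4 (0.39) were the 3 higher ones. The slide difference was greater in size than the line difference for 46 of 58 genes. This was not counted over all probes, so it is not read as particular to these genes. Slide took up 54.9% of the sum of squares of the cell cycle genes and the groups 14.6%, while over all probes these were 36.9% and 19.0%. The class medians followed the slide, in that all 8 arrays of slide 1 had higher replication and mitotic medians than all 7 arrays of slide 2. For the mitotic class they ran from 0.03 to 0.18 on slide 1 and from -0.18 to -0.04 on slide 2, as deviations from the mean of each probe. TYMS, HMMR and TOP2A, with slide differences of 0.06, -0.0016 and -0.01, were among the 20 genes not called for slide.

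**Figure D3:**
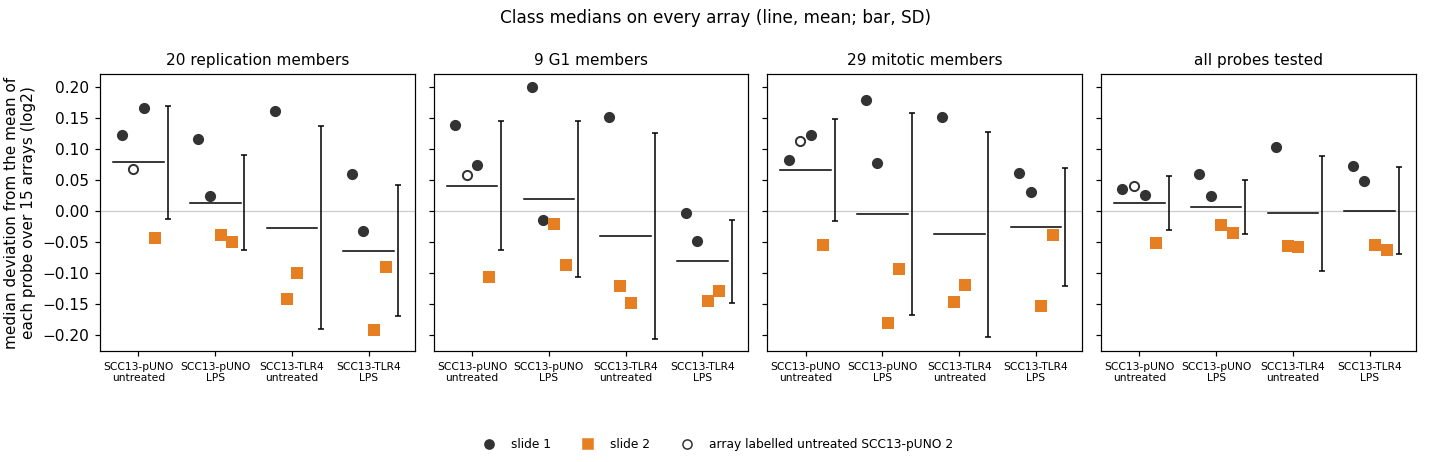
Class medians on every array, as the median deviation of the genes of a class from their own means over the 15 arrays (log2), for the 4 groups. Circles are slide 1, squares slide 2, the open circle is the doubted array, labelled untreated SCC13-pUNO 2, the line is the group mean and the bar its SD. The mitotic medians of slide 1 lie between 0.03 and 0.18 and those of slide 2 between -0.18 and -0.04, whatever the group.

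**Figure D4:**
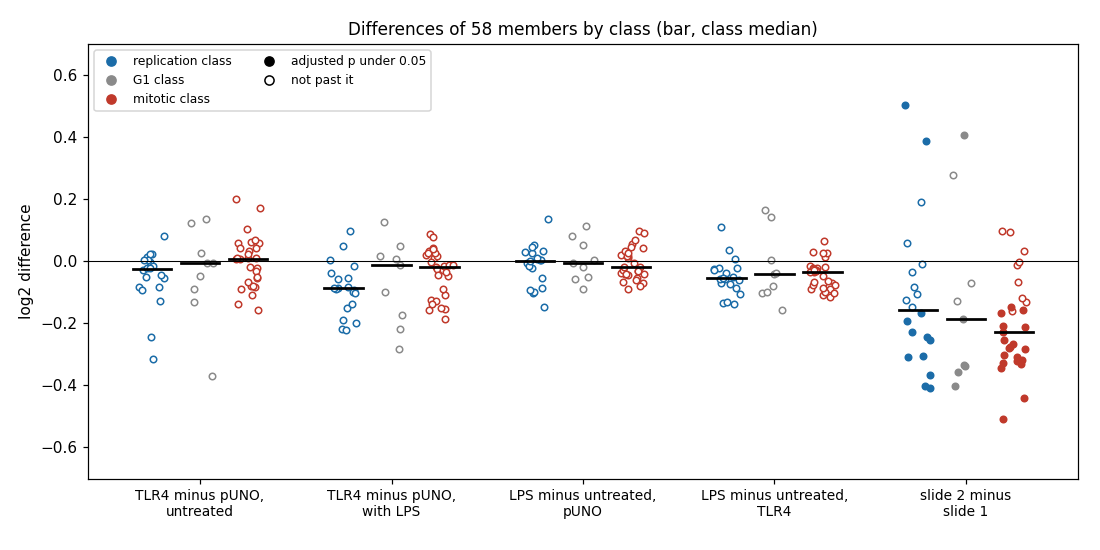
Log2 differences of the 58 genes in the 4 comparisons of line and LPS and between the slides, by class. Each point is a gene, filled where the adjusted p is under 0.05, and the bar is the class median. No point is filled in the 4 comparisons, and 38 are filled for slide.

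Other genes of the cycle were read in the same way. Of 81 listed genes 78 could be tested, and none was called at an adjusted p of 0.05 in any comparison. Over both treatments 4 were higher and 9 lower at an unadjusted p under 0.05, against 5.35% and 5.19% of all probes. The 9 lower ones were the pocket protein RB1 (-0.38, SE 0.13), E2F3, E2F8, the licensing inhibitor GMNN, GINS3, FZR1, CKS1B, ASPM and PLK2. RB1 had its highest value, 2.87, on SCC13-pUNO with LPS replicate 3. Of 25 further licensing and replication genes, GMNN and GINS3 were those with an unadjusted p under 0.05, and the median was -0.04. KIF2C, a kinesin, read -6.53 on untreated SCC13-TLR4 replicate 1, the array with the dark spots, and between 4.94 and 5.53 on the others.

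CDKN1A encodes p21, an inhibitor of the cyclin-dependent kinases that p53 switches on, and it had the smallest adjusted p of these genes. CDKN1A stood at -2.79, -2.35, -2.69 and -2.78 on the untreated SCC13-pUNO arrays and at -2.51, -2.30, -2.71 and -2.61 with LPS. In SCC13-TLR4 cells CDKN1A stood at -2.37, -2.33 and -2.46 untreated and at -2.24, -1.97, -2.40 and -2.30 with LPS. SCC13-TLR4 arrays were higher in 49 of 56 pairs, and the lines overlapped through the doubted array without LPS and through SCC13-pUNO replicate 2 with LPS. The difference was 0.32 (SE 0.08), with 0.34 without LPS and 0.31 with LPS. The limma adjusted p was 0.316 and the unadjusted p 0.00131. The exact permutation p was 0.00463. Without the doubted array the difference was 0.36 with a limma adjusted p of 0.0864. With normexp background correction in place of the software's it was 0.06. Of the other p53 targets, SESN2 (0.17, SE 0.07) and BTG2 (0.22, SE 0.08) were higher and PLK2 (-0.28, SE 0.10) lower at an unadjusted p under 0.05, out of 11 genes, where 5.35% of all probes were higher and 5.19% lower. The inhibitor CDKN2B, p15, lay at 0.32 (SE 0.12).

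Of the genes, 11 were printed on 10 spots of each array, among them TOP2A, CCNB1, CDK1 and CCND1. The spots of such a gene differed within an array by an SD of 0.03 to 0.07 log2 units at the median, and the arrays of a group by 0.11 to 0.28. For all 11 the spread between arrays was larger than that between spots. The spread between arrays was taken without removing slide, and each group lay on both slides, so it includes the slide difference.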

How the data were processed

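Gene expression was measured on 15 Agilent 1-colour arrays of SCC13 cells, with groups and replicate numbers taken from the sample labels. Per the file headers, the authors deposited spot intensities from Feature Extraction 10.7.3.1, which had subtracted the background with no normalization between arrays. Any later normalization and the test of the study are not given in the sources used here. A value table of the whole series repeated these intensities at 62976 spots an array and served as an alternative. The number of arrays limits the precision. Log2 values were computed here from the deposited intensities, minus the 75th percentile of each array, and not by the authors. Outlier-marked spots were left out and the spots of a probe averaged. Tested probes were those that the software marked well above background throughout 1 group or more. Probes were named by accession through a RefSeq table, and the brightest probe stood for a gene.

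Group and slide were factors in 1 limma model of the 15 arrays (limma 3.58.1, R 4.3.3), moderated by eBayes, and p-values were adjusted by Benjamini-Hochberg over the 22676 tested probes. A threshold of log2 difference over 1 or 2 was also counted. CENPF was fitted without untreated SCC13-TLR4 replicate 1, where its spot was marked as an outlier. Exact permutation tests were two-sided, within slide and treatment. Their p-values were not adjusted for the choice of GINS1, TK1, CCNE2, PLK1 and CDKN1A by their values. The smallest p they allow is 0.0833 without LPS and 0.0556 with LPS, so permutation results are given over both treatments only. Tables and figures were made in Python 3.11.15. The fit was also run on simulated data with planted line changes of 1 and 2 log2 units. Those are larger than any line difference of the genes, so that run does not show whether differences of this size would be called.

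Named with all values were MKI67, PCNA, MCM2, MCM5, CCND1, CCNB1, CDK1, TOP2A and CDKN1A, the 2 highest and 2 lowest differences of each comparison, every gene past the adjusted threshold, and genes whose probes disagreed in sign. TYMS and HMMR, with all values, and CDC45, with its difference alone, were added after their values were seen. The genes, classes and lists were chosen with earlier results of these data known. Alternatives were normexp background correction (offset 50, on the median in place of the mean spot signal), quantile and median scaling, other filters, other uses of slide and replicate number, array weights, other moderation, all probes of a gene, and leaving out each array. No other column of per-sample values was left out (0).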

Additional observations from a re-analysis of the deposited data

Results flagged for a closer look

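In 63 groups of 4 arrays of the named genes, 4 held an array far from the other 3 by Dixon's ratio. Chance would give about 1 in 20 groups, or 3.15, if the arrays of a group were interchangeable. They were not, since slide was not removed from these values and untreated SCC13-pUNO had 1 array alone on slide 2. The 3.15 is therefore only a rough guide. CCNB1 read 4.76 on untreated SCC13-pUNO replicate 4, against 5.09 to 5.15 on the other 3 arrays of the group, and that array was the one of the group on slide 2. MCM6 read 4.13 on SCC13-pUNO with LPS replicate 4, against 4.29 to 4.32. TYMS read 4.61 on untreated SCC13-pUNO replicate 2, against 4.81 to 4.84, and this was the array whose TLR4 value went against its label. HMMR read 2.75 on untreated SCC13-pUNO replicate 3, against 2.84 to 2.85.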

How the results depend on the processing

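No gene of the 58 passed an adjusted p of 0.05 in any of the 6 tests under the 32 other settings that gave one, and values within 1 slide carried no test. A log2 threshold of 1 or 2 can only remove calls, and the value table repeated the same intensities, so neither could add a call. A fit of only the groups compared gave no test over both treatments or of whether the lines responded differently. Counts at an unadjusted p under 0.05 ranged from 0 to 6 without LPS, 0 to 13 with LPS and 3 to 14 over both, and from 0 to 1 and 0 to 3 for LPS in SCC13-pUNO and SCC13-TLR4 cells. The 14 came from the replicate block and no slide factor, and the 13 without SCC13-pUNO with LPS replicate 2. Arrays with the same replicate number correlated between -0.34 and 0.26 once group and slide were removed. No correlation of differently numbered arrays is given beside this, and replicate number goes partly with slide. Whether the numbers mark pairs was therefore not settled. With the replicate block and no slide factor the replication median without LPS was -0.149. In every other setting tried the replication and mitotic medians moved by less than their replicate SDs of 0.114 and 0.132. Those SDs were taken within groups without removing slide, and they exceed the class medians themselves. Staying below them therefore does not show that the medians are stable. The G1 median was recomputed without the doubted array alone. Turned in sign were small differences over both treatments, and also the highest differences without LPS, those of PLK1 (0.20) and MKI67 (0.17). With the replicate block beside slide, CCND1 was 0.094, PCNA 0.014 and TOP2A 0.043. With the replicate block and no slide factor, CCNB1 was -0.017, MCM2 -0.053, and without LPS MKI67 -0.074 and PLK1 -0.0076. With no slide factor, MCM2 was -0.020 and MKI67 without LPS -0.012. With normexp, MCM5 was 0.023 and PCNA 0.037, and the mean of all probes gave CCNB1 -0.063. With 1 array left out at a time, CCNB1 ran from -0.0056 to 0.047, CCND1 from -0.058 to 0.011 and MCM5 from -0.049 to 0.0060. The cause was not tested. The same holds for CDKN1A, whose difference was 0.058 with normexp. What signal over background limits was not tested.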

Other observations

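Probes of the same gene did not always follow the slide in the same way. CENPF, a kinetochore protein, was 0.32 log2 units lower on slide 2 by its brightest probe (-0.32), while its other probe was 2.14 higher there. By that other probe the slide 1 arrays read -3.45 to -2.46 and the slide 2 arrays -1.12 to -0.50, with no overlap. Another PCNA probe was 0.41 higher on slide 2, where the brightest was at -0.10. The line difference over both treatments was -0.08 and -0.03 by the probes of CENPF.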
